A study of Mus musculus with 21 samples.

Results

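Astrocytes were followed in the mouse cortex 24 h after high-frequency head impact (HF-HI) through 8 genes that mark them: Gfap, S100b, Aqp4, Glul, Slc1a2, Slc1a3, Gja1 and Sparcl1. They were chosen by symbol as genes commonly used to recognize astrocytes, and each was found once among the 5544 genes of the expression table. All mice were male and aged 12 weeks, of the strain C57BL/6 in the labels and C57Bl/6J in the methods, with no transgene or other allele named. The 11 HF-HI mice had received head impacts under isoflurane on successive days, and the 10 sham mice were handled and anesthetized in the same way without impacts, so anesthesia was common to both groups. Whole cortex was taken 24 h after the last session, and each mouse gave 1 RNA-seq library.

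Astrocytes tile the cortex, take up glutamate and potassium released at synapses, return glutamine to neurons and contact blood vessels with endfeet that are rich in water channels. After injury they can become reactive, a state recognized by more of the intermediate filament protein GFAP, while the transporters, channels and enzymes they use at rest may follow another course. The genes are therefore described as the reactive marker Gfap, then the transporters and the enzyme of glutamate handling, then the endfoot and coupling channels, then S100b and the secreted protein gene Sparcl1.

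The values are variance-stabilized log2 values deposited after normalization for library size, so that a difference of 1 is close to a doubling for abundant genes and understates the change of genes with few reads. Groups were compared over all genes with limma's moderated test, and a gene was called where its Benjamini-Hochberg adjusted p was under 0.05. Read totals were not analysed here. The spacing of the values gave depth relative to the median library, 0.580 to 1.26 in sham and 0.548 to 1.64 in HF-HI. The trend of each library with gene GC content, over exons, ran from -0.23 to 0.0058 log2 units per 10% GC in sham and from -0.039 to 0.16 in HF-HI, so the differences were also computed with that trend removed. HF-HI replicate 9 held the highest or lowest value of its group in 51.7% of all genes, where equal shares would be 18.2%, and no call of an astrocyte gene changed without it.

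Of the 8 genes, 5 were higher in HF-HI, 2 were lower and 1, Aqp4, was not called. The count has to be read against a table in which 66.3% of all genes were called, 32.6% higher and 33.6% lower, a split that became 1448 higher and 2376 lower genes with library medians centred. The median difference of the 8 genes was 0.093 on the log2 scale and that of all genes was -0.0086. None of the 8 genes had groups without overlap, as 13.5% of all genes did. With each library centred on its median, 2 were higher and 3 lower, and with quantile normalization 2 were higher and 4 lower. Glul and Gja1 were called higher under every handling of the values and with any 1 library left out. In whole cortex, a lower value from fewer astrocytes and one from less RNA per astrocyte cannot be told apart.

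RefSeq promoter windows of the GRCm38.p6 assembly, from 250 bases before to 50 after the annotated start, were at hand for 6 of the 8 genes, all but Aqp4 and Sparcl1. The windows of 4 genes are printed, 2 higher genes and 2 lower ones, to place their regulatory sequence beside the opposite directions of their differences. Capitals mark exact matches on either strand. The motifs searched were TTCNNNGAA for STAT and TGA, any base, TCA for AP-1. A nuclear factor I half-site was read as TTGGCA, and CRE as TGACGTCA. The TATA box was read as TATAAA, and the last motif was CCAAT. The windows are chr11:102897151-102897450 on the minus strand for Gfap, chr10:56377050-56377349 on the plus strand for Gja1, chr10:76253586-76253885 on the plus strand for S100b and chr15:8710758-8711057 on the minus strand for Slc1a3, each written 5′ to 3′ on the strand of its gene.
Gfap: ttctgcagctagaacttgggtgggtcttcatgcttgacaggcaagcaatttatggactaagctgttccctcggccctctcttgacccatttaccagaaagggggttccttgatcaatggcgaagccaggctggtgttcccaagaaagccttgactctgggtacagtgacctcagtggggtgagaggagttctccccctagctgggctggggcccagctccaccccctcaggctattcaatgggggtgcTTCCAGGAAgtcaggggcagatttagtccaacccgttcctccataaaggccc
Gja1: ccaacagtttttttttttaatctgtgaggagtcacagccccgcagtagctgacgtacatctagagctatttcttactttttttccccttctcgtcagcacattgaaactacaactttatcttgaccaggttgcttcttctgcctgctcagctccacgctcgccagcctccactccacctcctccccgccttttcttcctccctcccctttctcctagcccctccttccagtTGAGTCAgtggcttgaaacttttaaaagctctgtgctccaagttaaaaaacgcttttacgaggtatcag
S100b: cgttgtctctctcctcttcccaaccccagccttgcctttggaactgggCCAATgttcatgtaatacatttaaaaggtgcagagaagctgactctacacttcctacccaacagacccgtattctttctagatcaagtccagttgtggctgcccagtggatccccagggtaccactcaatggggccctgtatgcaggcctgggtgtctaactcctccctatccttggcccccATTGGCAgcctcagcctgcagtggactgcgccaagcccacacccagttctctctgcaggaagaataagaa
Slc1a3: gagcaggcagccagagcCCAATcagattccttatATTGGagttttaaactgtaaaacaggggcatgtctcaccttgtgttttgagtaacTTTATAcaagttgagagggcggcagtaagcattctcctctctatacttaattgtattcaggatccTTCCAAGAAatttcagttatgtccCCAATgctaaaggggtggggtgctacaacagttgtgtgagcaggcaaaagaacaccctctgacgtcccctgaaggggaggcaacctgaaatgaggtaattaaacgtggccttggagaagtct

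The Gfap window held 1 STAT match, TTCCAGGAA, from position 249, at its annotated start, and Slc1a3 held another, TTCCAAGAA, from position 155. A STAT match lay in 8.30% of 32851 RefSeq promoter windows of this length. Gja1 had an AP-1 match, TGAGTCA, from position 232, a motif found in 7.81% of windows. The half-site of S100b began at position 232, in a motif found in 14.1% of windows, and overlapped a CCAAT match read from the other strand. CCAAT, present in 37.4% of windows, had 2 matches in S100b and 3 in Slc1a3, and the TATA box, present in 13.6%, had 1 match in Slc1a3, read from the other strand. Of the windows not printed, Glul had 2 CCAAT matches and Slc1a2 none of the 6 motifs. The Slc1a2 window, chr2:102706188-102706487, lay at a start inside the gene, which begins at 102658659. The Gfap window also lay inside its gene, which begins at 102900912 on the minus strand. For both genes the sequence at the 5′ end of the gene was not searched. These are matches of letters, and binding was not measured.

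Gfap (ENSMUSG00000020932, chr11:102887336-102900912, minus strand, GRCm38) encodes the intermediate filament protein of astrocytes. Its value ran between 8.46 and 9.43 (median 8.96) in the HF-HI group and between 8.41 and 9.26 (median 8.65) in the sham group. The groups overlapped over most of their range: 3 of 11 HF-HI libraries lay above the highest sham library, and 9 lay above the sham median. Means of 8.99 ± 0.313 (SD, n = 11) after HF-HI and 8.70 ± 0.243 (SD, n = 10) after sham treatment gave a difference of 0.29 with a standard error of 0.113 (limma's moderated test, Benjamini-Hochberg adjusted p = 0.0258). On the linear scale this was 22.5% more. The call was lost with the GC trend removed, where the difference was 0.19 (adjusted p = 0.155), and with library medians centred, where it was 0.24 (adjusted p = 0.0592).

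A single sham mouse set the upper end of the sham range for Gfap. Replicate 4 stood at 9.26 and the next sham library at 8.85. Without sham replicate 4 the difference was 0.35 (limma, adjusted p = 0.00518), and without HF-HI replicate 2, the lowest of its group at 8.46, it was 0.35 (adjusted p = 0.00690). The call was lost without HF-HI replicate 8, the highest library at 9.43, where the difference was 0.25 (adjusted p = 0.0508), and without sham replicate 10, where it was 0.26 (adjusted p = 0.0503).

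**Figure D1:**
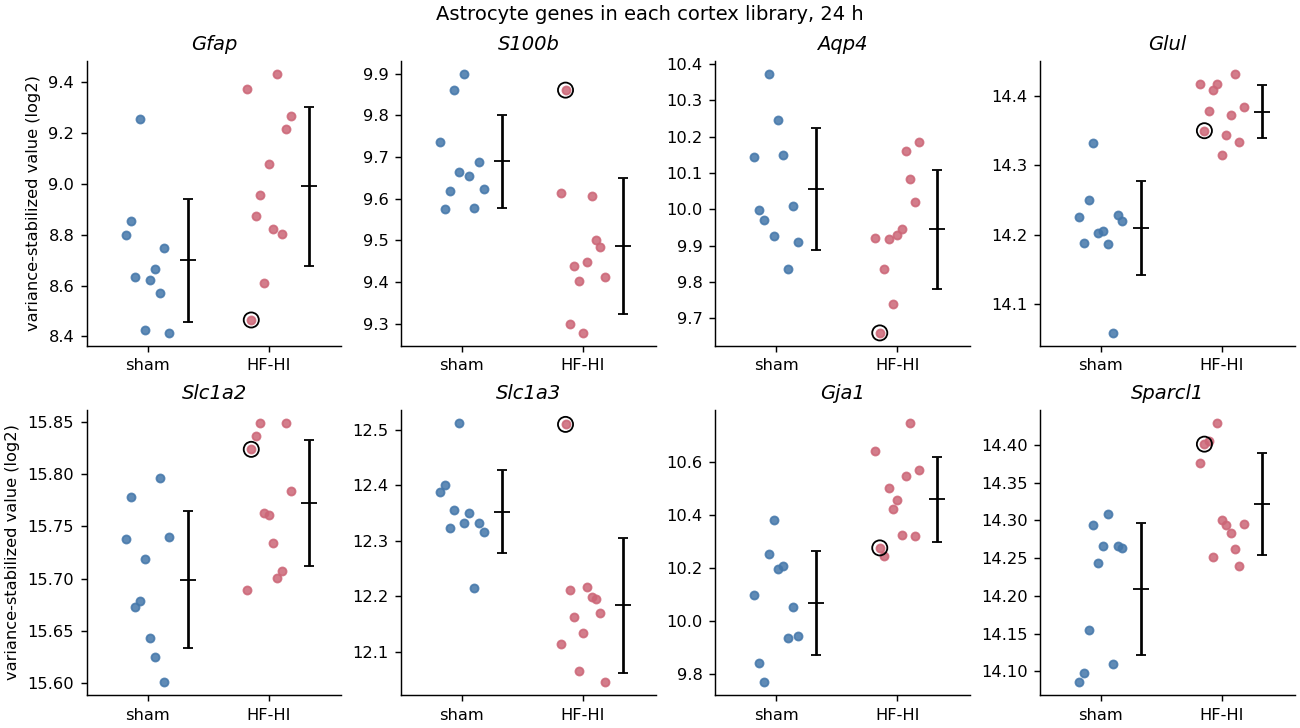
Variance-stabilized log2 value (vertical axes, each with its own range) of the 8 astrocyte genes in 10 sham (blue) and 11 HF-HI (red) libraries, 1 point per mouse, with black bars for mean ± SD. The circled point is HF-HI replicate 2, which lies among the sham values for S100b and Slc1a3, and for Glul 10 of 11 HF-HI points lie above every sham point.

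Glul (ENSMUSG00000026473, chr1:153899944-153909723, plus strand) encodes glutamine synthetase, which turns glutamate taken up by astrocytes into glutamine. It ran between 14.32 and 14.43 (median 14.38) in the HF-HI group and between 14.06 and 14.33 (median 14.21) in the sham group. Only sham replicate 4 reached the HF-HI range. The difference was 0.17 with a standard error of 0.0272, or 12.3% on the linear scale (limma, adjusted p = 1.28e-05). HF-HI libraries spread less than sham ones, with an SD of 0.0386 (n = 11) against 0.0677 (n = 10), a contrast that was not tested.

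Slc1a2 (ENSMUSG00000005089, chr2:102658659-102790784, plus strand) encodes GLT-1, the main glutamate transporter of the adult forebrain. Its HF-HI values ran from 15.69 to 15.85, with a median of 15.76, and its sham values from 15.60 to 15.80, with a median of 15.70. Only 4 HF-HI libraries stood above the sham range. The difference was 0.073 with a standard error of 0.0295 (limma, adjusted p = 0.0323), the smallest in size of the 8 genes. This call was lost without any 1 of sham replicates 3, 6, 7 and 9 and HF-HI replicates 2, 3, 4 and 10, where the difference lay between 0.062 and 0.070 and the adjusted p reached 0.0657. It turned to -0.29 with quantile normalization (adjusted p = 6.21e-05).

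Slc1a3 (ENSMUSG00000005360, chr15:8634124-8710764, minus strand) encodes GLAST, the other astrocytic glutamate transporter, and went the opposite way. It ran between 12.05 and 12.51 (median 12.17) in the HF-HI group and between 12.22 and 12.51 (median 12.34) in the sham group. Of the HF-HI libraries, 9 of 11 lay below the lowest sham library. The difference was -0.17 with a standard error of 0.0441 (limma, adjusted p = 0.00186), a fall of 11.1% on the linear scale. HF-HI replicate 2 stood apart at 12.51, against 12.22 for the next HF-HI library, and without it the difference was -0.20 (adjusted p = 1.90e-05). With the replicate number as a block and the GC trend removed, the difference was -0.097 (adjusted p = 0.0700) and the call was lost.

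The glutamate handling genes thus split, with the synthetase and Slc1a2 higher and Slc1a3 lower. Slc1a2 minus Slc1a3 within a library ran between 3.31 and 3.74 (median 3.62) in the HF-HI group and between 3.21 and 3.58 (median 3.34) in the sham group. Glul minus Slc1a3 ran from 1.84 to 2.35 in HF-HI and from 1.69 to 1.98 in sham, and 10 of 11 HF-HI libraries exceeded every sham library. These 2 log ratios are given without a test. They pair genes already seen to differ in opposite directions, so some separation of the groups follows from the choice of genes.

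Gja1 (ENSMUSG00000050953, chr10:56377330-56402513, plus strand) encodes connexin 43, which joins astrocytes through gap junctions, and had the largest difference of the 8. It ran between 10.25 and 10.75 (median 10.46) in the HF-HI group and between 9.77 and 10.38 (median 10.08) in the sham group. All 11 HF-HI libraries were above the sham median and 7 above the sham maximum. The means of 10.5 ± 0.160 (SD, n = 11) and 10.1 ± 0.195 (SD, n = 10) differed by 0.39 with a standard error of 0.0722, or 31.2% on the linear scale (limma, adjusted p = 5.82e-05). It ranked 592 of 5544 genes by size of difference, and Gfap ranked 1084.

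Aqp4 (ENSMUSG00000024411, chr18:15389496-15410982, minus strand) encodes the water channel of endfeet. Its values ran between 9.66 and 10.2 (median 9.93) in the HF-HI group and between 9.84 and 10.4 (median 10.004) in the sham group. The ranges largely overlapped, with 2 HF-HI libraries below the sham minimum. The difference was -0.11 with a 95% confidence interval from -0.25 to 0.029 (limma, adjusted p = 0.149), so a fall of this size was not separated from the spread between mice. It passed the threshold with library medians centred, at -0.16 (adjusted p = 0.0381), and with quantile normalization, at -0.15 (adjusted p = 0.0477), and was -0.021 with the GC trend removed.

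S100b (ENSMUSG00000033208, chr10:76253853-76261159, plus strand) encodes a calcium-binding protein that astrocytes also release. It ran between 9.28 and 9.86 (median 9.45) in the HF-HI group and between 9.58 and 9.90 (median 9.66) in the sham group. Of the HF-HI libraries, 10 of 11 lay below the sham median and 8 below the sham minimum. The difference was -0.20 with a standard error of 0.0585 (limma, adjusted p = 0.00399), a fall of 13.2% on the linear scale. HF-HI replicate 2 was again the exception at 9.86, and the difference without it was -0.24 (adjusted p = 1.97e-04). Removing the trends on both GC content and the exonic length of the gene left -0.027 (adjusted p = 0.672).

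Sparcl1 (ENSMUSG00000029309, chr5:104079111-104113733, minus strand) encodes hevin, a secreted protein that acts at excitatory synapses. It ran between 14.24 and 14.43 (median 14.30) in the HF-HI group and between 14.09 and 14.31 (median 14.25) in the sham group. Of the HF-HI libraries, 4 of 11 were above the sham range. The difference was 0.11 with a standard error of 0.0348 (limma, adjusted p = 0.00675). It was 0.061 with library medians centred (adjusted p = 0.124) and 0.030 with quantile normalization (adjusted p = 0.443), and 0.087 with the replicate number as a block and the GC trend removed (adjusted p = 0.0971), and was called in none of these.

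HF-HI replicate 2 held an extreme of its group in 4 of the 8 genes, the lowest Gfap and Aqp4 and the highest S100b and Slc1a3. Over all genes it was an extreme in 14.2%, below the equal share of 18.2%. In sham, replicate 8 was an extreme in 4 of the genes and replicate 4 in 3. Over all genes these 2 were extremes in 22.2% and 23.8%, where equal shares would be 20%.

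**Figure D2:**
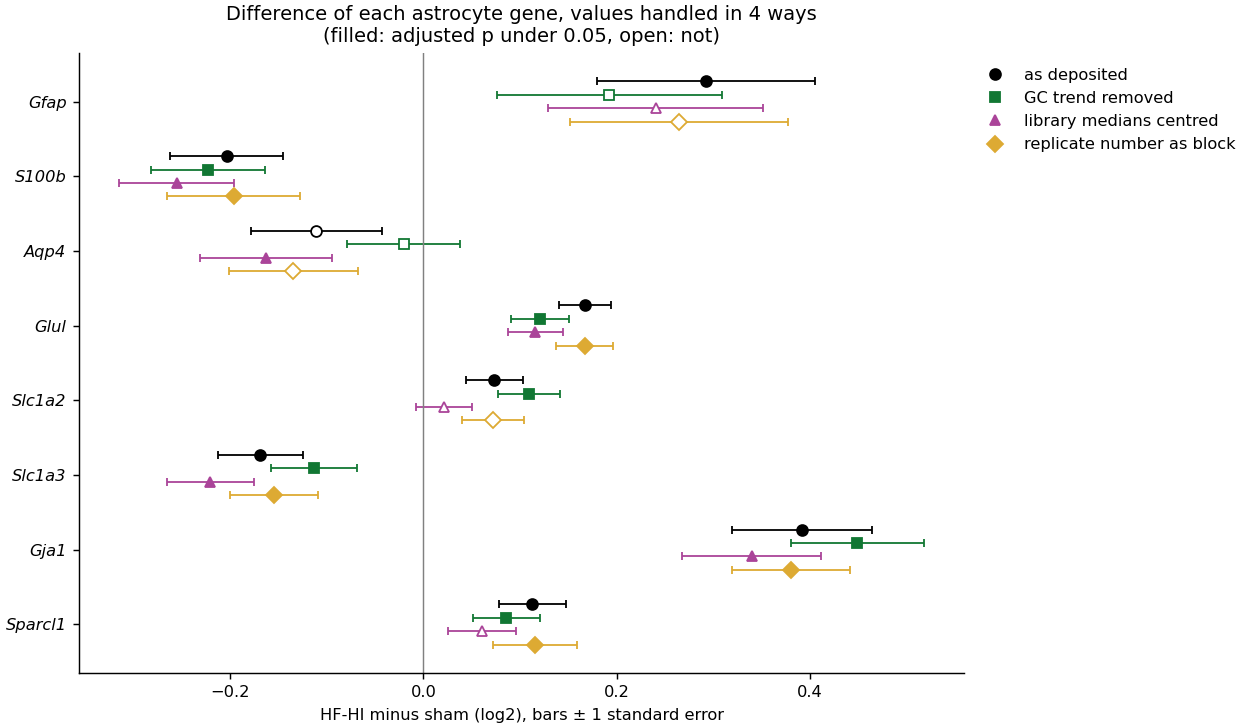
HF-HI minus sham on the log2 scale (horizontal axis) for each astrocyte gene, with values as deposited, GC trend removed, library medians centred or the replicate number as a block; bars are ± 1 standard error, and filled symbols have a limma adjusted p under 0.05. Glul and Gja1 are filled and positive in all 4, S100b and Slc1a3 filled and negative in all 4, and Gfap is filled only for the values as deposited.

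To ask whether the other genes moved as Gfap did, the Gfap value of the same library was subtracted from every gene and the groups were compared again. By this measure 52.7% of the 5543 other genes were called, 49.2% lower and 3.46% higher, so a lower value relative to Gfap was common in the table. Of the 7 genes, 3 were called, all lower: S100b, Slc1a3 and Aqp4. The mean differences of these 3 genes were lower than that of Gfap by this test, while single libraries overlapped between the groups. Gfap minus S100b ran from -1.40 to -0.14 in HF-HI and from -1.28 to -0.60 in sham. Gfap minus Slc1a3 ran from -4.05 to -2.74 in HF-HI and from -4.09 to -3.10 in sham.

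S100b relative to Gfap differed by -0.50 with a standard error of 0.136 (limma, adjusted p = 0.00176), and Slc1a3 by -0.46 with a standard error of 0.141 (adjusted p = 0.00425). Gfap minus Aqp4 ran from -1.28 to -0.55 in HF-HI and from -1.62 to -1.11 in sham, with all 11 HF-HI libraries above the sham median, and Aqp4 relative to Gfap differed by -0.40 with a standard error of 0.137 (adjusted p = 0.00951). The other 4 genes were not called: Slc1a2 at -0.22 (adjusted p = 0.192), Sparcl1 at -0.18 (adjusted p = 0.280), Glul at -0.12 (adjusted p = 0.461) and Gja1 at 0.10 (adjusted p = 0.539). With the GC trend removed only S100b was called, at -0.42 (adjusted p = 0.0225), and with quantile normalization Slc1a2 was called as well, at -0.54 (adjusted p = 0.00179). As all these values share the Gfap value of their library, the test was repeated with each gene's own spread, which called the same 3 genes with adjusted p of 0.00795 for S100b, 0.00296 for Aqp4 and 0.0159 for Slc1a3.

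Gfap minus the mean of the other 7 genes ran between -3.95 and -2.98 (median -3.40) in the HF-HI group and between -3.95 and -3.19 (median -3.63) in the sham group. The other 7 averaged 12.364 ± 0.0416 (SD, n = 11) after HF-HI, against 12.326 ± 0.0719 (SD, n = 10) for sham mice, a difference of 0.037. The score was 0.25 higher in HF-HI, with 4 of its 11 libraries above the sham range and 9 above the sham median. Removal of the GC trend brought this to 0.13. A score over chosen genes is given without a test.

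**Figure D3:**
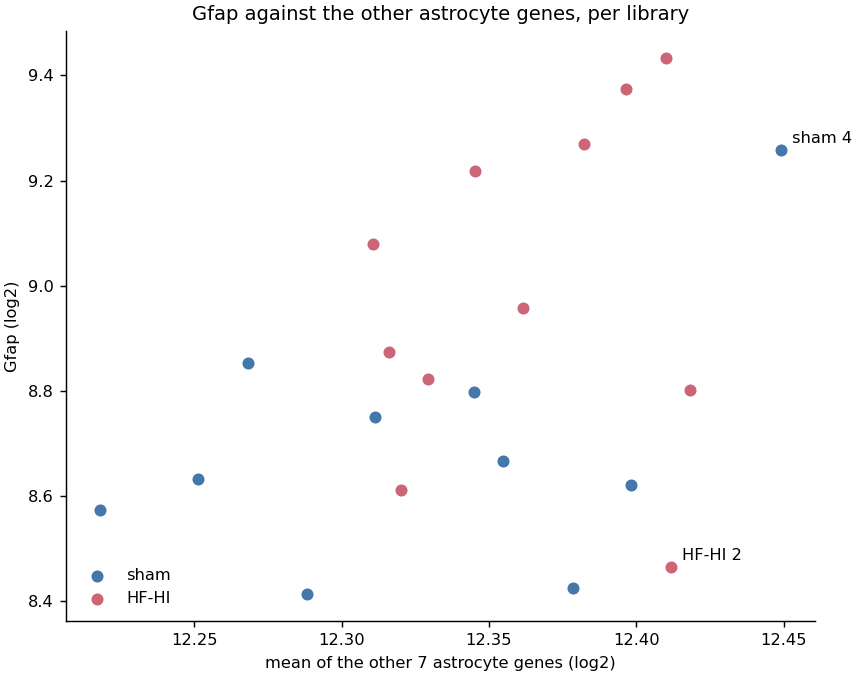
Gfap (vertical axis, log2) against the mean of the other 7 astrocyte genes (horizontal axis, log2), 1 point per library, sham in blue and HF-HI in red. Gfap spans from 8.41 to 9.43, with HF-HI replicate 2 low and sham replicate 4 high. The mean of the other genes spans a narrower range, but a mean over genes of unlike directions varies less than its members. Gja1 alone spans from 9.77 to 10.75, so the wide span is not particular to Gfap.

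Correlations between the 8 genes across mice of one group were mixed in sign. Of the 28 pairs, 20 had a positive Pearson r in sham and 13 in HF-HI, and none of the 56 correlations passed an adjusted p of 0.05. Gfap and Aqp4 had an r of 0.729 in sham (permutation test, p = 0.0151, adjusted p = 0.211, Spearman's rho 0.673 with p = 0.0393) and 0.752 in HF-HI (p = 0.00839, adjusted p = 0.189, rho 0.618 with p = 0.0478). Without the 2 libraries farthest from the median of Gfap, r was 0.335 in sham and 0.522 in HF-HI. S100b and Aqp4 had an r of 0.860 in sham (permutation test, p = 0.00201, adjusted p = 0.113, rho 0.733 with p = 0.0200), 0.639 without the 2 farthest libraries, and -0.22 in HF-HI (p = 0.527, adjusted p = 0.787, rho 0.0636 with p = 0.860), where leaving out the 2 farthest libraries turned r to 0.438. S100b and Slc1a3 had an r of 0.703 in HF-HI (permutation test, p = 0.0367, adjusted p = 0.249, rho 0.382 with p = 0.248), and 0.0485 without the 2 farthest libraries, so that this value rests on them.

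**Figure D4:**
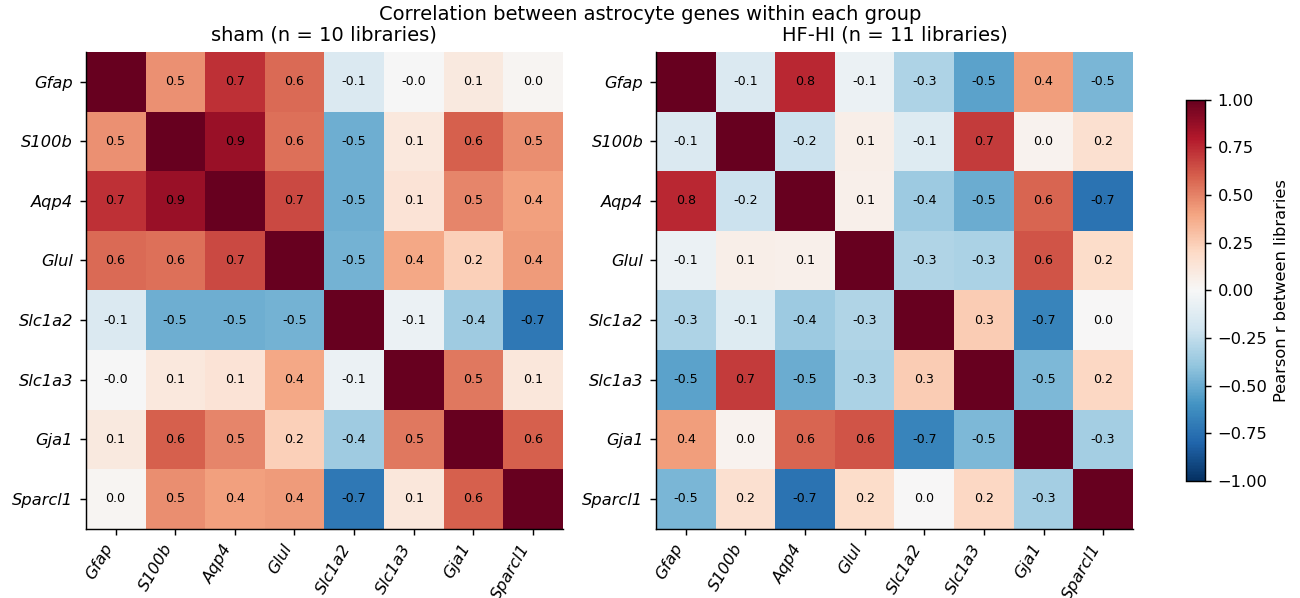
Pearson r between libraries for each pair of astrocyte genes, in sham (left, n = 10) and HF-HI (right, n = 11), with red for positive and blue for negative. Gfap and Aqp4 are positive in both groups, and none of the 56 values passed the threshold after adjustment.

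The genes of the table whose values were most like Gfap, by the mean of the r within sham and the r within HF-HI, were Unc13c at 0.790, Anln at 0.774, Erbin at 0.761 and Inpp5f at 0.753. Aqp4 was the fifth, at 0.740. Those most like the mean of the other 7 genes were Lrp1b at 0.774, Ptgr2 at 0.773, Capzb at 0.765 and Sptbn1 at 0.754. These are descriptions over 10 and 11 libraries, in which genes share the depth and base composition of their library. Erbin, at -0.21 (limma, adjusted p = 0.00137), Inpp5f, at -0.13 (adjusted p = 0.0197), and Lrp1b, at -0.19 (adjusted p = 0.00252), were lower in HF-HI, and none of the 3 was called with the GC trend removed (adjusted p = 0.170, 0.0930 and 0.0939). The others were not called, with Unc13c at -0.19, Anln at -0.026, Ptgr2 at -0.086, Capzb at 6.59e-05 and Sptbn1 at 0.048. Sptbn1 was called higher with the GC trend removed, at 0.079 (adjusted p = 0.0142), and with relative depth as a covariate, at 0.068 (adjusted p = 0.0349), and Ptgr2 was called lower with medians centred, at -0.14 (adjusted p = 0.0246), and with quantile normalization, at -0.13 (adjusted p = 0.0317).

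Per length, taken as the log2 value minus the log2 of the exonic kilobases, the levels of the genes in sham were 12.7 for Sparcl1, 12.5 for Glul, 12.0 for Slc1a2, 9.26 for Slc1a3, 9.12 for S100b, 7.42 for Aqp4, 6.71 for Gja1 and 6.62 for Gfap. The SD between sham libraries lay between 0.0654 and 0.243. HF-HI had the same order, from 12.8 for Sparcl1, 12.6 for Glul and 12.1 for Slc1a2 to 7.31 for Aqp4, 7.10 for Gja1 and 6.91 for Gfap, and there the ranges of Aqp4 and Gja1 overlapped as well. In sham the ranges of Sparcl1 and Glul, of Slc1a3 and S100b, and of Gja1 and Gfap overlapped. The genes were not compared within libraries, so this overlap does not show that these neighbours were alike. The longest transcript as length put Gja1 at 8.11, above Aqp4 at 7.72, and left Gfap lowest.

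Other astrocyte genes, grouped by role into 6 lists of 139 genes, were in the table for 69 of them. HF-HI was higher in 30 of these and lower in 13, and 26 were not called. Over all genes 66.3% were called, 32.6% higher and 33.6% lower. The median difference of the listed genes was 0.081. With the GC trend removed the split was 24 higher and 17 lower with a median of 0.0096, beside 60.2% of all genes called in that fit. Of all genes, 1620 were higher and 1715 lower there. Library medians centred gave 24 higher and 16 lower, beside 1448 higher and 2376 lower of all genes. The lists are described by these counts alone, and the counts of each list below have to be read against the same shares of all genes.

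For glutamate and GABA handling, 11 of 15 genes were in the table, 4 higher, 3 lower and 4 not called. Slc6a11, the GABA transporter GAT-3, was 0.62 higher (limma, adjusted p = 2.81e-07), with 10 of 11 HF-HI libraries above the sham range. The aspartate aminotransferases Got1 and Got2 were 0.48 and 0.25 higher, while Glud1, glutamate dehydrogenase, was lower with a difference of -0.29 (adjusted p = 5.18e-06). Of the other members of the glutamate transporter family, Slc1a4, a neutral amino acid transporter, was 0.16 higher (adjusted p = 0.00166) and 0.048 with the GC trend removed (adjusted p = 0.202), and the neuronal transporter Slc1a1 was at -0.015 (adjusted p = 0.642). Slc1a1 was called lower with medians centred, at -0.067 (adjusted p = 0.0399), and with GC and length trends removed, at -0.068 (adjusted p = 0.0312).

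In the list of ion, water and endfoot genes, 10 of 15 were in the table, with 5 higher, 4 lower and 1 not called. Atp1b2, a sodium pump subunit of astrocytes, was 0.69 higher. Kcnj10, the potassium channel Kir4.1, was 0.36 higher (limma, adjusted p = 0.00132) although no HF-HI library exceeded the highest sham library, and Dag1, dystroglycan, was 0.33 higher. Gjc3, a connexin of oligodendrocytes, was 0.26 higher (adjusted p = 0.00100).

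Secreted and matrix genes numbered 9 of 17 in the table, with 5 higher, 1 lower and 3 not called, or 2 higher and 1 lower with the GC trend removed. Sparc, a relative of Sparcl1, was 0.60 higher (limma, adjusted p = 1.71e-05), as were the protease gene Htra1 by 0.30, Mfge8, a phagocytosis bridging protein, by 0.29 and the proteoglycan Ncan by 0.16. With the GC trend removed Htra1 was at 0.14 (adjusted p = 0.0640), Mfge8 at 0.11 (adjusted p = 0.0730) and Ncan at -0.0028, and these calls were lost. Spock2, another SPARC family gene, was 0.84 higher with no overlap between the groups.

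The metabolic list had 19 of 24 genes in the table, 7 higher, 3 lower and 9 not called, with a median difference of 0.026. With the GC trend removed the balance turned to 5 higher and 6 lower, with a median of -0.065. Clu, the lipoprotein clusterin, was 0.41 higher (limma, adjusted p = 2.23e-06), and its lowest HF-HI library at 12.37 was above the highest sham library at 12.34. Cpe, a carboxypeptidase of peptide hormone processing that neurons and endocrine cells use, was 1.00 higher without overlap. Mt1, a metallothionein, was 0.37 higher and Ppp1r3c, a glycogen regulator, differed by -0.22 (adjusted p = 0.00453). The identity enzymes Aldh1l1 and Aldoc were at -0.051 and 0.0084 and the lipoprotein gene Apoe at 0.026, none of them called. With the GC trend removed Aldh1l1 at -0.20 (adjusted p = 0.00108) and Apoe at -0.19 (adjusted p = 0.00271) were called lower.

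Identity and signalling genes were in the table for 19 of 30, with 9 higher, 2 lower and 8 not called, or 8 higher and 4 lower with the GC trend removed. The nuclear factor I gene Nfix was 0.69 higher, the Wnt pathway gene Daam2 0.57 and the neurotensin receptor Ntsr2 0.47, and none of the 3 overlapped between groups. Nfia was 0.34 higher (limma, adjusted p = 2.05e-05). Of 38 genes listed for the reactive state beside Gfap, only Synm, an intermediate filament protein, was in the table, at 0.0041 (adjusted p = 0.931), and Vim and Serpina3n, like Gjb6 and Sox9, were not analysed here. Other intermediate filament genes of the table were neuronal: Ina was 0.84 higher, Nefh 0.48 and Nefm 0.37, and Nefl was not called, at -0.0039. With the GC trend removed Nefh was at 0.23 and Nefm at 0.22, both still called. With the replicate number as a block as well, the Nefm call was lost (limma, adjusted p = 0.0591).

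**Figure D5:**
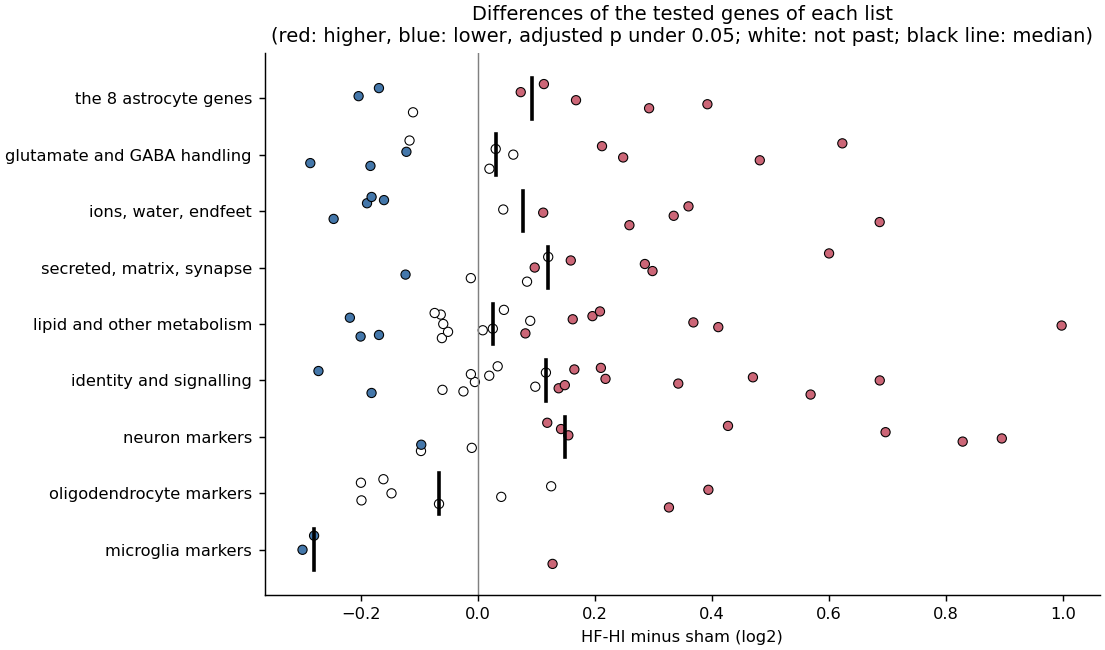
HF-HI minus sham on the log2 scale (horizontal axis) for each tested gene of the astrocyte lists and of the neuron, oligodendrocyte and microglia markers; red and blue points were higher and lower with a limma adjusted p under 0.05, white points were not called, and black lines are medians. Each of the role lists drawn holds genes on both sides of 0, and their medians lie between 0.026 and 0.12.

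Markers of other cell types are given beside these genes, against the 66.3% of all genes called, 32.6% higher and 33.6% lower. All 10 neuron markers listed were in the table, 7 higher, 1 lower and 2 not called, or 6 higher and 0 lower with the GC trend removed, and their mean ran from 12.5 to 12.6 in HF-HI and from 12.1 to 12.3 in sham. All 9 oligodendrocyte markers were present, 2 higher and 7 not called, or 2 higher and 2 lower with the GC trend removed, with overlapping means from 11.1 to 11.7 in HF-HI and from 11.1 to 11.8 in sham. Of the 11 microglia markers 3 were in the table, 2 lower and 1 higher, or 2 lower and 0 higher with the GC trend removed, with Ctss at -0.30 and Csf1r at 0.13, and their mean ran from 9.07 to 9.38 in HF-HI and from 9.36 to 9.46 in sham. Both endothelial genes in the table, of 6 listed, were called, Flt1 at 0.28 higher and Slco1a4 at -0.24 lower, with means from 9.17 to 9.31 in HF-HI and from 9.11 to 9.33 in sham. Of 4 oligodendrocyte precursor markers 2 were present, 1 of them higher, or 0 higher and 1 lower with the GC trend removed, and of 3 ependymal and choroid plexus markers only Ttr, which was not called and ran from 6.86 to 13.3 in HF-HI and from 6.16 to 11.5 in sham. Markers outside the table were not analysed here, and the part of the neuron, microglia, endothelial, precursor and choroid plexus markers in the group differences of the astrocyte genes was not tested.

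In sham the mean of the oligodendrocyte markers correlated with Gfap across libraries with an r of 0.821 (permutation test, p = 0.00291, adjusted p = 0.186 over 64 relations, rho 0.709 with p = 0.0274), and 0.567 without the 2 farthest libraries. In HF-HI this r was 0.357 (permutation test, p = 0.286, adjusted p = 0.931, rho 0.345 with p = 0.298), and 0.00347 without the 2 farthest libraries. None of the 64 relations of the genes to marker means, depth or GC slope passed the adjusted threshold. With the oligodendrocyte mean as a covariate 7 of the 8 genes were called and the Gfap difference was 0.28 (limma, adjusted p = 0.0124), and with relative depth as a covariate it was 0.30 (adjusted p = 0.0379).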

How the data were processed

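Cortex libraries from 21 mice, 10 sham and 11 HF-HI, were analysed at 24 h, with groups and replicate numbers from the labels and 1 library per mouse. The authors depleted ribosomal RNA, built stranded libraries, aligned reads to mm10 with STAR, counted them per transcript with eXpress and normalized them with DESeq2. They deposited variance-stabilized log2 values for 5544 genes, from 4.59 to 17.7; the versions of STAR and eXpress are not given in the sources used here. Every column was matched to a library. Reads shared by near-identical genes may have been split by the counting.

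Symbols, positions, lengths and GC content (5539 genes) came from GENCODE for GRCm38, the assembly of mm10. Differences between groups were tested by limma 3.58.1, run in R 4.3.3 (lmFit, eBayes with a trend, two-sided, Benjamini-Hochberg over all genes). Other steps used Python 3.11.15, numpy 2.4.6, scipy 1.17.1, pandas 2.3.3, statsmodels 0.14.6 and matplotlib 3.10.9, with 100000 resamples for permutation tests. GC trends were removed by lowess with a span of 0.3. The total depth is unknown, relative depth came from value spacing between 500 and 600 after raising 2 to the value, and the median SD within a group was 0.104.

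The 8 genes and all lists were chosen with earlier results of these data known. Genes named beside the 8 are up to 4 called genes per list with the largest absolute difference, 10 named by symbol (Vim, Serpina3n, Kcnj10, Gjb6, Aldh1l1, Apoe, Clu, Aldoc, Sox9, Slc1a1) and the 4 most like Gfap or the mean of the others, and some genes that met these rules are not reported here. Slc1a4, Gjc3, Spock2, Ina, Nefh and Nefm come from lists of related genes by the same rule. Synm, Nefl and the microglia, endothelial and choroid plexus markers were named after their values were seen. Alternatives were eBayes without a trend, medians centred, quantile normalization, the GC trend removed, the replicate number as a block with and without that, the lowest quartile left out, relative depth as a covariate, the Wilcoxon rank-sum test, an adjusted p under 0.1, a difference of at least 0.25, the longest transcript as length and each library left out. Removal of the length trend, the oligodendrocyte covariate, unmoderated spread and all alternatives of the correlations and of the Gfap score were chosen after seeing the data.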

Additional observations from a re-analysis of the deposited data

Results flagged for a closer look

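Gfap in sham replicate 4, at 9.26, lay far from the next sham library for the spread of its group, as did Glul in sham replicate 8, at 14.1, below the other sham libraries, and Gfap minus Slc1a2 in sham replicate 4, at -6.42. Across 16 sets of 10 sham values examined in this way 3 stood out, where chance gives about 1 in 20 sets, and the first and last share the same Gfap value. Groups of 11 were not examined in this way. Sham replicate 4 had a relative depth of 0.580, the lowest in sham, and its part in these values was not tested.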

How the results depend on the processing

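Of the 8 genes, 7 were called; the count was 4 with GC and length trends removed, 4 with the replicate block and the GC trend removed, and 6 to 7 with 1 library left out. Relative to Gfap, 3 of 7 were called, 1 with the GC trend removed, 1 with GC and length trends removed, 0 with the replicate block and the GC trend removed, and 3 to 3 with 1 library left out. Over all genes 3674 were called, 1433 with a difference of at least 0.25 and 3562 to 3805 with 1 library left out. Of the 8 genes, only Gfap at 0.29 and Gja1 at 0.39 reached a difference of 0.25. The lists had 40 to 44 calls with 1 library left out, and the Gfap score lay between 0.22 and 0.31. Of the correlations, 1 passed with the GC trend removed.

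The replicate block called 5 of the 8 genes and 3498 of all, with Gfap at 0.26 (limma, adjusted p = 0.0553) and Slc1a2 at 0.072 (adjusted p = 0.0649) lost. Same-numbered libraries correlated from -0.31 to 0.36, over 0.1 in 4 of 10 pairs, and 0 correlated best with their own number. A weak shared source need not give the best match, so this check cannot show whether same-numbered libraries share more than a number.

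Gfap was also not called with quantile normalization (0.25, limma, adjusted p = 0.0534), with GC and length trends removed (0.23, adjusted p = 0.0927), or with the block and the GC trend removed (0.16, adjusted p = 0.247). Slc1a2 was 0.021 with medians centred and -0.29 with quantile normalization, the 1 of the 8 genes whose sign turned. With medians centred Apoe was -0.026, Aldoc -0.044, Capzb -0.052 and Sptbn1 -0.0040; with quantile normalization Apoe was -0.015, Aldoc -0.039 and Capzb -0.051. With the GC trend removed Ncan was -0.0028, Apoe -0.19, Aldoc -0.088, Anln 0.073, Ptgr2 0.016 and Capzb -0.092. With length removed as well Ncan was -0.031, Apoe -0.055, Aldoc -0.023, Anln 0.034 and Capzb -0.028. With the block and the GC trend removed Ncan was -0.0029, Apoe -0.20, Aldoc -0.072, Anln 0.069, Ptgr2 0.013 and Capzb -0.096, and with depth as covariate Aldoc was -0.042. With 1 library left out Aldoc ran from -0.012 to 0.036, Anln from -0.060 to 0.0094, Capzb from -0.034 to 0.019 and Slc1a1 from -0.029 to 2.16e-04. The cause of these turns was not tested. Depth limits the genes with fewest reads, and the mean value of Gfap, not scaled by length, exceeds that of 16.5% of genes.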
